A study of Rattus norvegicus with 28 samples.

Results

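The genes described here had a higher mean RNA level in samples exposed to injured spinal cord at week 4 than in 3 other groups. Those groups were injured week 3, uninjured week 3 and uninjured week 4, and neither culture nor week 2 entered the choice. The set is 150 of the 32545 genes in the deposited table. Its genes were selected on CPM (a gene's count per 1000000 counts of its library), using group means with 1 added. The rule kept genes with a mean of at least 10 CPM in injured week 4 and an injured over uninjured ratio under 2 at week 3, which left 6984 candidates. It then took the 150 with the largest ratio of injured week 4 to the highest of uninjured week 3, uninjured week 4 and injured week 3. These values chose the genes, so they are given as a description and carry no test.

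The study is about transplanting neural progenitor cells into the injured rodent spinal cord, and its 28 libraries are labelled as rat neural progenitor cells. They form 7 groups of 4: cells under culture conditions, and cells exposed to spinal cord or to injured spinal cord, each with a label of 2, 3 or 4 weeks. Groups labelled spinal cord without a mention of injury are called uninjured. The labels give no strain, age, sex or genotype, and do not say how the exposure was made, from which event weeks are counted, or whether progenitor cells were separated from cord tissue or came from separate animals. All p-values thus rest on the variation among these libraries, part or all of which may be technical. In such bulk RNA, fewer cells of a type and less RNA per cell cannot be told apart.

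Neural progenitor cells divide and can give rise to neurons, astrocytes and oligodendrocytes. Injury of the spinal cord sets off bleeding and inflammation, followed over the next weeks by clearance of debris, growth of a glial scar, deposition of matrix and remodelling of axons and vessels. Genes whose RNA changes late are therefore of interest in comparisons of early and late samples.

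The table names genes by rat Ensembl identifier only, and 0 of the 32545 identifiers matched the RefSeq table of rat gene symbols used here. Marker genes of neural progenitors and of other cell types could not be looked up, so the cell type label was not checked. The genes are described by their levels, with identifiers printed for 2 genes that were higher and 2 that were lower in a comparison. Other genes are called by their rank in the ratio.

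Libraries outside week 2 held 2605188 to 6908508 counts, and the 8 week 2 libraries 84532 to 446331. Injured week 3 replicate 3, which the rule leaves out, had 0 counts for 42 of the 150 genes, while the other 3 libraries of its group detected 146 to 149 of them. The single most abundant gene of each library, which is not among the 150, took 13.5% to 20.2% of the counts in injured week 4 and 9.98% to 13.3% in uninjured week 4. TMM factors (scaling factors that offset such differences in composition) were 0.729 to 0.866 in injured week 4 and 0.908 to 1.02 in uninjured week 4. TMM scaling raised the log2 ratio of injured to uninjured week 4 by a median of 0.21 over the candidates. It raised that of injured week 4 to injured week 3 by a median of 0.33. CPM by library totals, as the rule has it, thus gives the smaller week 4 levels, and is used below unless TMM is named.

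The 150 genes stood higher together in all 4 injured week 4 libraries. Their median level was 45.6, 54.0, 42.3 and 48.8 CPM there, against 16.8, 20.6, 19.96 and 19.1 CPM in uninjured week 4. In uninjured week 3 the medians were 16.7, 19.6, 17.0 and 19.1 CPM. In injured week 3 they were 14.3, 14.7 and 11.6 CPM, and 16.7 CPM in replicate 3. No library of these 3 groups reached the lowest injured week 4 library, a separation that the rule itself favours. The mean of the library medians was 47.7 ± 4.98 CPM in injured week 4 (SD, n = 4) and 19.1 ± 1.63 CPM in uninjured week 4 (SD, n = 4).

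**Figure D1:**
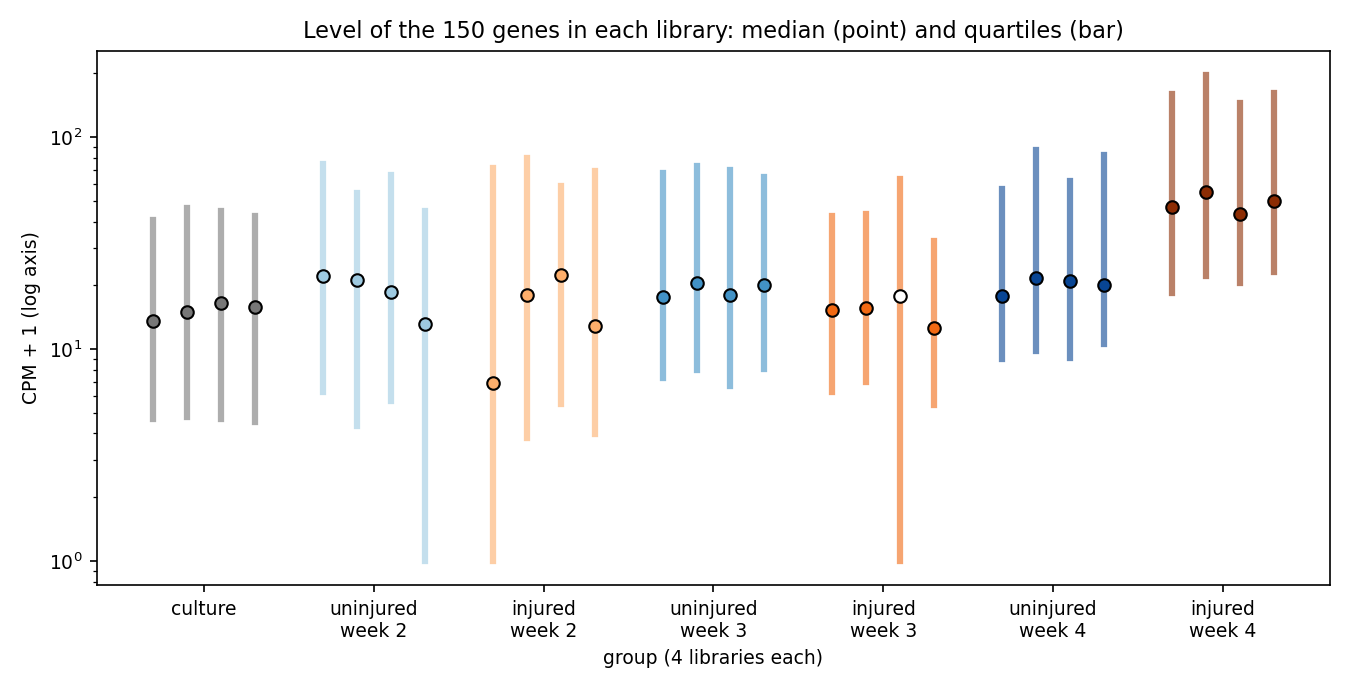
Level of the 150 genes in each of the 28 libraries, as CPM + 1 on a log axis; points are medians over the genes, bars run from the lower to the upper quartile, and the open point is injured week 3 replicate 3. The 4 injured week 4 medians lie between 42.3 and 54.0 CPM before 1 is added, above every other library, and culture lies between 12.6 and 15.5 CPM.

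As a share of all counts, the 150 genes made up 3.40% ± 0.542 in injured week 4 (SD, n = 4), with a range of 2.86% to 4.11%. The share was 1.21% ± 0.207 in uninjured week 4, 1.13% ± 0.168 in uninjured week 3 and 0.736% ± 0.0246 in culture (SD, n = 4 each). In the 3 injured week 3 libraries used by the rule it was 0.723% ± 0.129 (SD, n = 3). One gene, ENSRNOG00000018454, accounted for 1.18% of all counts in injured week 4. Without it the share of the set was still higher at week 4 after injury, at 2.22% against 1.01% in uninjured week 4.

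ENSRNOG00000018454 ranked 7 by the ratio and had the highest CPM of the set in injured week 4, on a scale that is not corrected for gene length. It stood at 12211, 15745, 9270 and 10001 CPM in injured week 4, against 1302, 2100, 2459 and 2137 CPM in uninjured week 4. In uninjured week 3 it had 1490, 1530, 1623 and 1176 CPM. The injured week 3 libraries used by the rule had 1310, 1781 and 898 CPM, and replicate 3 had 2996 CPM. The lowest injured week 4 library was therefore above all libraries of these groups. Culture libraries were the lowest of all, at 257, 217, 251 and 244 CPM. At week 2, injured libraries had 1585, 2352, 1974 and 4004 CPM and uninjured ones 1055, 1018, 1883 and 1085 CPM, so the groups overlapped. The week 2 log2 fold change, 0.84 (standard error 0.28), was not called (adjusted p = 0.0824, edgeR quasi-likelihood test). Leaving out each week 2 library moved the log2 fold change between 0.45 and 1.17. The lowest value was without injured week 2 replicate 4 (adjusted p = 0.351, edgeR). The gene passed without injured week 2 replicate 1, without uninjured week 2 replicate 3 and with no filter on low counts. In the fit of the week 2 libraries alone it did not pass, with a log2 fold change of 0.855 (adjusted p = 0.99996, edgeR).

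The largest ratio of all, 14.5, belonged to ENSRNOG00000046600 and rested on 2 libraries. It had 34.3 CPM in injured week 4 replicate 1 and 19.7 CPM in replicate 3, and 0 counts in replicates 2 and 4. All 8 uninjured libraries of weeks 3 and 4 and the 3 injured week 3 libraries of the rule had 0 counts. Outside injured week 4, the gene had 22 counts in injured week 2 replicate 2 and 1 count each in injured week 3 replicate 3 and culture replicate 1. In injured week 4 it averaged 13.5 ± 16.7 CPM (SD, n = 4), which fell under the floor of 10 CPM without replicate 1, at 6.57 CPM. It was the only one of the 150 with 0 counts in an injured week 4 library.

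The other genes were steadier within the group. The coefficient of variation over the 4 injured week 4 libraries had a median of 22.1% over the 150 genes, with quartiles of 16.7% and 28.9%. The gene ranked 2, with a ratio of 10.2, stood at 94.2, 104.2, 116.6 and 119.9 CPM in injured week 4. In uninjured week 4 it had 4.29, 12.6, 5.76 and 9.48 CPM, so that no library came near the injured ones. The genes ranked 3 and 6 were alike in this. They had 186.3 ± 16.6 and 281.1 ± 18.96 CPM in injured week 4 (SD, n = 4 each) against 22.3 ± 5.38 and 41.9 ± 9.91 CPM in uninjured week 4 (SD, n = 4 each). For all but 41 of the 150 genes (72.7%) the lowest injured week 4 library lay above all 11 other libraries that the rule used. This held for 2.33% of the 6984 candidates, a share that includes these genes. The rule chose the genes on these same libraries and favours such a separation, so both shares are a description.

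Most ratios were modest. The median over the 150 genes was 1.88, with quartiles of 1.67 and 2.18. The ratio was at least 2 for 56 genes, at least 3 for 23 and at least 5 for 9. Over all candidates the median ratio was 0.685. The threshold fell in a dense part of the ranking: the last 3 genes inside had ratios of 1.560, 1.557 and 1.555, and the first 3 outside had 1.551, 1.548 and 1.547. The gene ranked 150 had 515.4 CPM in injured week 4 and 331.1 CPM in uninjured week 3, and the gene ranked 151 had 46.1 and 29.4 CPM. Mean injured week 4 levels ran from 10.5 to 11807 CPM with a median of 45.5 CPM. There were 35 genes under 20 CPM, 67 from 20 to 100 CPM, 44 from 100 to 1000 CPM and 4 above. The 4 injured week 4 libraries together gave each gene at least 167 counts and a median of 721.

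**Figure D2:**
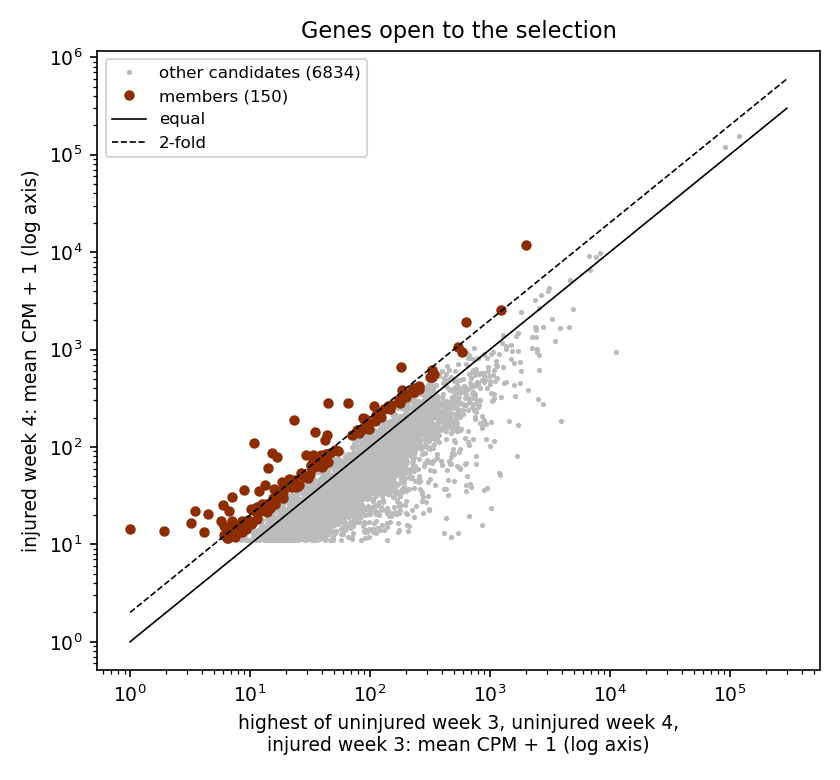
The 6984 candidates by the highest of their 3 comparison group means (horizontal) and their injured week 4 mean (vertical), both as CPM + 1 on log axes, with members in colour. The solid line marks equal values and the dashed line a 2-fold ratio, which 56 of the 150 members reach.

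When the same rule was turned round to seek genes raised in injured week 3 only, 8178 genes were candidates and 588 reached a ratio of 2, against 56 for week 4. These were 7.19% and 0.802% of the candidates. With TMM-scaled library sizes the shares were 4.18% and 1.63%. Fewer genes thus stood out at week 4 alone than at week 3 alone under both scalings, but the size of the gap depended on the scaling. The 2 counts share the same libraries, 3 of injured week 3 and 4 of injured week 4. Neither the effect of these unequal numbers nor the difference of the counts was tested.

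Set against single groups, the injured week 4 mean was at least 2-fold above uninjured week 4 for 82 genes, above uninjured week 3 for 96 and above injured week 3 for 120 (1 added to each mean). These were 54.7%, 64% and 80% of the 150 genes, beside 1.82%, 2.58% and 15.1% of the candidates. The rule favours such ratios, so the shares are a description. The median ratios of the 150 genes were 2.04, 2.34 and 3.39. The group that came nearest to injured week 4 was uninjured week 4 for 70 genes, uninjured week 3 for 51 and injured week 3 for 29.

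The 150 genes differed among themselves in what they did at week 3, where the rule set only an upper limit. In 42 genes the injured week 3 mean was at most 0.5 times the uninjured one. In 48 genes it lay between 0.5 times and equal, and in 60 it was at or above the uninjured mean but under 2-fold. The first of these groups went from low at week 3 to high at week 4. Its median level was 12.7 CPM in injured and 43.0 CPM in uninjured week 3, then 112.3 CPM in injured and 44.9 CPM in uninjured week 4. In the second group the 4 medians were 16.8, 22.5, 52.1 and 22.3 CPM, in the same order. In the third group they were 12.6, 9.58, 34.9 and 14.6 CPM. The median ratio of injured to uninjured week 4 was nearly alike in the 3 groups, at 1.95, 2.14 and 2.03. A mean of at most 0.5 times uninjured at week 3 was found for 22.7% of the candidates, beside the 42 of 150.

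**Figure D3:**
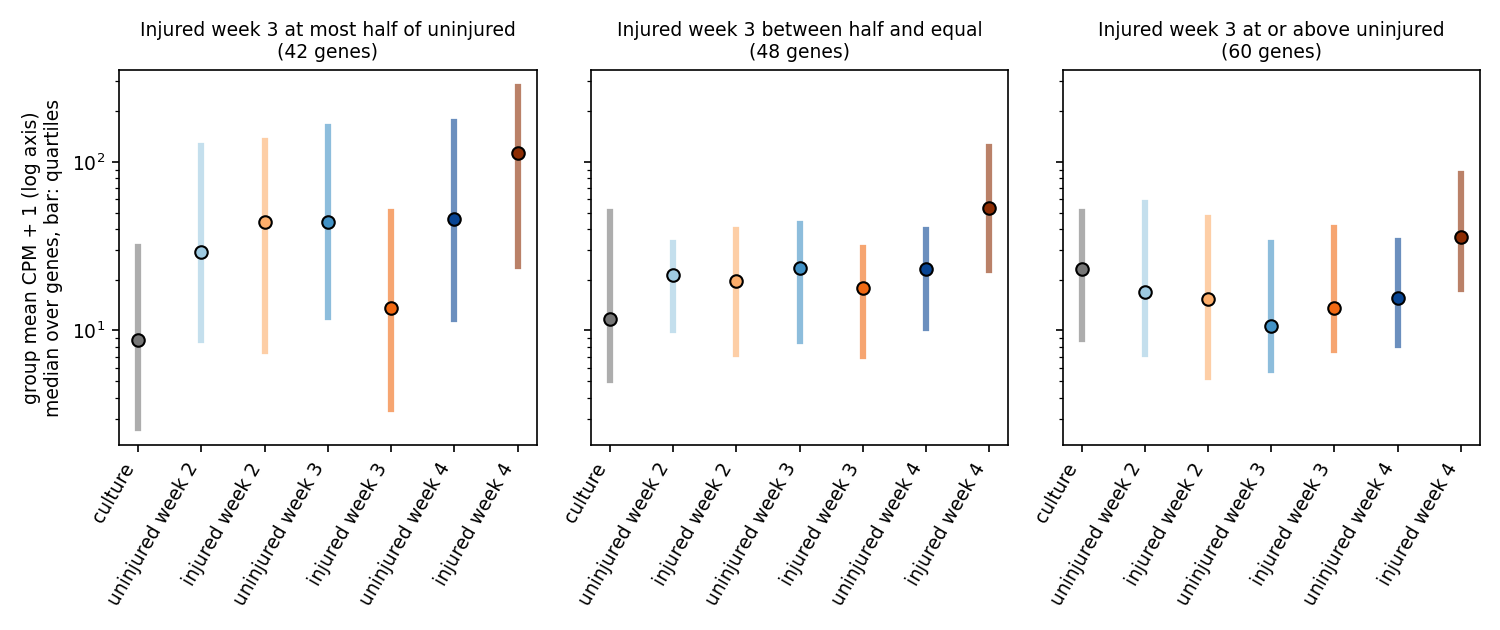
Median over genes of the group means in the 7 groups, as CPM + 1 on a log axis with quartile bars, for the 42, 48 and 60 genes split by their injured to uninjured ratio at week 3. The left panel shows a low injured week 3 level beside a low culture level, with medians of 12.7 and 7.73 CPM before 1 is added. In the right panel the culture median, 22.1 CPM, is above the injured week 3 median of 12.6 CPM. Injured week 3 is the mean without replicate 3.

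Culture played no part in the choice, and its levels shifted across the same 3 groups of genes with wide overlap. The culture medians were 7.73, 10.7 and 22.1 CPM, with quartiles of 1.64 and 30.5, 4.08 and 49.2, and 7.89 and 49.2 CPM. Of the 42 genes that were low in injured week 3, 34 were at most 0.5 times their uninjured week 4 level in culture, as were 76.2% of the candidates split the same way. Of the 48 genes between 0.5 times and equal, 22 were that low in culture, beside 13.4% of such candidates. Of the 60 genes at or above the uninjured level, 7 were, beside 2.06% of such candidates. In the same group 12 were at least 2-fold above their uninjured week 4 level in culture, beside 10.8% of such candidates. Of the 48 genes 6 were, beside 2.23% of such candidates, and of the 42 genes 0 were, beside 0.632%. The injured week 4 level was a median of 11.2 times the culture level in the first group, 4.29 times in the second and 1.42 times in the third (1 added to each mean). The rule favours the injured week 4 level, and no values of the candidates stand beside these ratios. These splits were made after the values were seen and have no test.

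Over all 150 genes, injured week 4 stood above culture by a median ratio of 3.69, where the candidates had a median of 0.947. For 74.7% of the genes every injured week 4 library was above every culture library, against 25.3% of the candidates. For 4 genes (2.67%) every injured week 4 library was below every culture library, against 31.2% of the candidates. The rule favours high injured week 4 levels, so these shares are a description. The culture mean was under 1 CPM for 16 genes and above the injured week 4 mean for 18. Injured week 4 had the highest of the 7 group means for all but 32 genes. For those it was culture for 17, injured week 2 for 10 and uninjured week 2 for 5.

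ENSRNOG00000061910, ranked 15, stood furthest below culture among the 6 genes with the highest culture levels. Culture libraries had 377.5, 334.0, 394.0 and 339.7 CPM, and injured week 4 libraries 50.1, 54.3, 57.1 and 75.2 CPM. Uninjured week 4 libraries had 10.4, 3.60, 19.96 and 4.10 CPM. In uninjured week 3 it had 4.69, 13.5, 1.70 and 8.07 CPM, and the injured week 3 libraries used by the rule had 8.88, 17.4 and 13.0 CPM. Injured week 4 thus lay apart from both sides, below all culture libraries and above all libraries of the other 3 groups. The other 5 of these 6 genes had injured week 4 means of 0.686 to 1.09 times their culture mean.

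**Figure D4:**
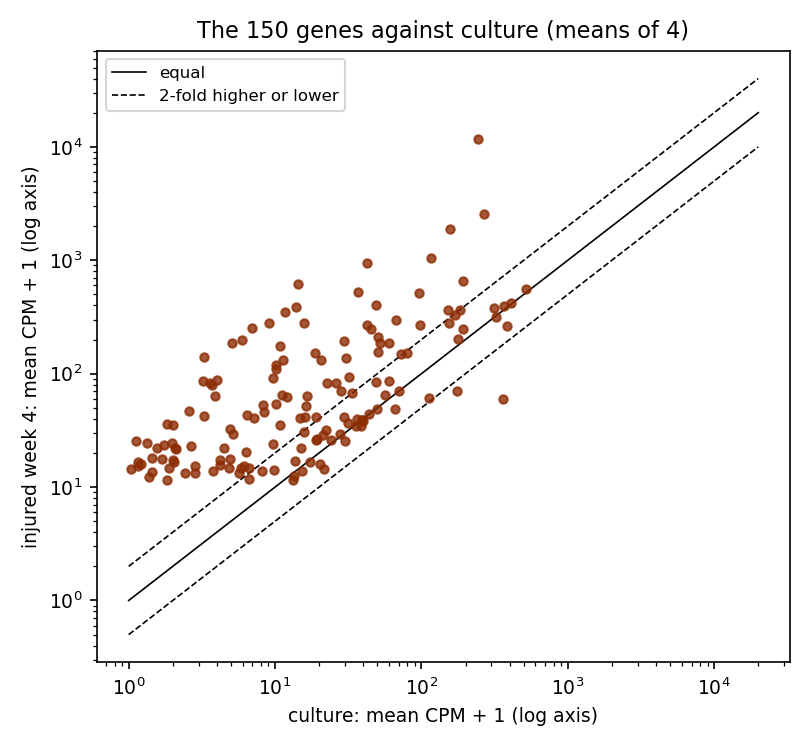
Mean level of each of the 150 genes in culture (horizontal) and in injured week 4 (vertical), as CPM + 1 on log axes, each a mean of 4 libraries. The solid line marks equal levels and the dashed lines 2-fold differences; 18 genes lie below the solid line.

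Week 2 is the only time at which injury can be tested for these genes, because none of its 8 libraries took part in the choice. With injury 1 of the 150 genes was higher and 4 were lower, 5 in all (adjusted p under 0.05 over 14282 genes, Benjamini-Hochberg, edgeR quasi-likelihood test). That is 3.33% of the set, and 3.37% of all genes tested were called. Higher calls made up 0.667% of the set and 1.20% of all genes tested, and lower calls 2.67% and 2.16%. The set therefore stood near the background at week 2. Without overlap between the groups, 1 gene (0.667%) was higher and 2 (1.33%) were lower after injury, against 1.45% and 1.02% of the candidates. The median log2 fold change was 0.01 for the 150 genes and -0.05 for all genes tested, and 77 of the 150 were above 0. The filter on low counts looked at all 7 groups. Run on the 8 week 2 libraries alone, it kept 55 of the 150 genes and removed 95. None of the 5 called genes was among the 55 that passed on the week 2 libraries alone. All 5 calls thus rest on genes with few week 2 counts, and the closeness to the background rests partly on such genes. The balance of directions was not steady either. There were 3 higher and 3 lower with no filter on low counts and without uninjured week 2 replicate 4, and 4 higher and 4 lower without injured week 2 replicate 1.

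Depth limits this comparison. The 8 week 2 libraries together gave a median of 42.5 counts a gene, with 44 genes under 20 counts, and the standard error of the log2 fold change had a median of 0.68. Differences of the size seen at week 4 would often not be detectable at this depth. The fit of the 8 week 2 libraries alone tested 55 of the 150 genes and called 0, with 2 at an unadjusted p under 0.05. DESeq2 called 16, or 10.7% of the set, and 10.9% of all genes it tested.

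**Figure D5:**
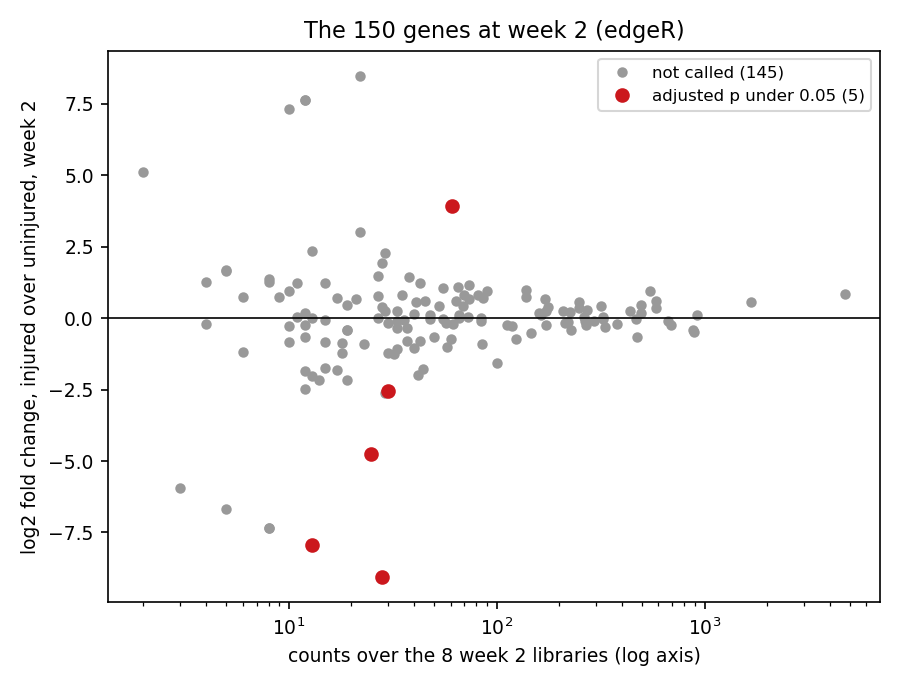
Log2 fold change of injured over uninjured exposure at week 2 (vertical) against the counts summed over the 8 week 2 libraries (horizontal, log axis) for the 150 genes. The 5 called genes are in red, 1 above and 4 below 0, and the spread of the values is widest where counts are few.

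ENSRNOG00000009409, ranked 33, was called lower after injury at week 2, from few counts. Its high injured week 4 level is what the rule selects, so no course over time was tested. At week 2 it had 3, 10, 13 and 2 counts in uninjured libraries and 0 counts in all 4 injured ones. With a floor of 3 counts set for the injured group, pooled counts over library totals were 10.2-fold lower after injury. This value leaves out the spread between libraries, so it is not a lower limit. The test gave a separate estimate, a fitted log2 fold change of -9.07 (edgeR quasi-likelihood test, adjusted p = 0.00972). At week 4 it had 29.4, 59.0, 35.4 and 45.7 CPM in injured libraries and 12.2, 14.8, 26.9 and 15.9 CPM in uninjured ones. Injured week 3 libraries had 13.8, 12.5 and 12.4 CPM, within the range of uninjured week 4 (12.2 to 26.9 CPM), and replicate 3 had 0 counts. Uninjured week 3 libraries had 10.8, 4.85, 12.2 and 1.94 CPM, all below the injured week 3 libraries that the rule used. The ratio of injured to uninjured means at week 3 was 1.64 (1 added to each mean). On the week 2 libraries alone the filter removed this gene, so its call depended on the other groups. With all 28 libraries in the fit the fitted log2 fold change was as large (-9.21, against -9.07 without injured week 3 replicate 3), but the adjusted p was 0.0536 (edgeR).

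The other 4 genes called at week 2 also rested on few counts. The 1 that was higher after injury had 58 counts in injured and 3 in uninjured libraries, and its log2 fold change was 3.92 (standard error 0.84, adjusted p = 0.00925, edgeR). The 3 others that were lower had 1, 0 and 5 counts in injured and 24, 13 and 25 counts in uninjured libraries. Among them was the gene ranked 8, with 0, 20, 4 and 0 counts in the uninjured libraries, so that its week 2 difference rested mostly on replicate 2. Its week 4 means were 86.2 CPM with injury and 14.4 CPM without.

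Within injured week 4, replicate 2 was the highest library for 87 of the 150 genes and replicate 3 the lowest for 70. Relative to the group mean, replicate 2 had a median of 1.17 over the 150 genes and 0.866 over the candidates. Replicate 2 was also the library in which the most abundant gene took 20.2% of counts. Its part in the choice was not tested beyond leaving it out, which kept 130 of the 150 genes.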

How the data were processed

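RNA was extracted with Trizol and libraries were made with a stranded total RNA kit for very small inputs, per the labels' protocols. The deposited file is a gene table of raw counts in 28 columns. Per the submitters' processing notes, the tools were featureCounts 1.5.1, STAR 2.5.1, Picard, StringTie 1.3.3, Trim Galore 0.4.1 and FastQC 0.11.5, with no roles stated. The notes give the mouse build GRCm38, although the identifiers are rat. Annotation release, strand setting and treatment of multi-mapped reads were not given in the sources used here. Counts of genes that overlap or have close copies are therefore uncertain.

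CPM values were computed from these counts by library totals. Week 2 was tested with edgeR 4.0.16 under R 4.3.3 (robust quasi-likelihood F test, TMM, filterByExpr by group) on 27 libraries, without injured week 3 replicate 3, with a mean for each of 7 groups and adjusted p-values over the 14282 genes kept. The test was tried on simulated data first. DESeq2 1.42.0 was an alternative. The standard error is the log2 fold change divided by the square root of F. No library of a group duplicated another. Reads carried no molecular identifiers, so the floor covers counting error only.

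The members and lists were chosen with earlier results of these data known. The rule for naming genes asked for a symbol and was applied without it: printed are the first gene by ratio, the first by injured week 4 level, the first that was lower at week 2 and, chosen after its values were seen, the gene furthest below culture among the 6 highest there. The 36 gene lists and the tests of their genes outside the 150 at weeks 3 and 4 were not run, since no identifier matched a symbol. The floor of 10 CPM was read as applying to the mean before 1 is added.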

Additional observations from a re-analysis of the deposited data

Results flagged for a closer look

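In groups of 4 libraries, 38 sets of values with any spread were examined (the median level, the share of counts and the 4 printed genes), and 6 held 1 library far from the other 3 (Dixon's ratio above its 95% critical value). About 1.9 would be so by chance if the sets were independent and normally distributed. These sets share libraries and include very low counts, so the comparison is rough and no conclusion is drawn from it. In 3 of the 6 the other 3 libraries were all at 0, which fixes the ratio at 1. These were ENSRNOG00000046600, with 62.1 CPM in injured week 2 replicate 2, 0.277 CPM in injured week 3 replicate 3 and 0.167 CPM in culture replicate 1. ENSRNOG00000018454 had 1883 CPM in uninjured week 2 replicate 3, where the others of the group had 1018 to 1085 CPM. ENSRNOG00000061910 had 47.5 CPM in uninjured week 2 replicate 1, from 9 counts, where the others had 0 to 6.70 CPM. ENSRNOG00000009409 had 0 CPM in injured week 3 replicate 3, where the others had 12.4 to 13.8 CPM.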

How the results depend on the processing

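The number of the 150 genes called at week 2, 5 as reported, was 5 with RLE factors, 6 with no filter on low counts, 4 with all 28 libraries, 16 with DESeq2 and 0 with the week 2 libraries alone, and 3 to 9 when each week 2 library was left out. It was 8 without injured week 2 replicate 1, 9 without injured week 2 replicate 3 and 3 without uninjured week 2 replicate 2. Of the 150 genes, another selection kept 146 with 0.1 added, 135 with 5 added, 129 with TMM scaling, all but 29 with injured week 3 replicate 3 included, all but 35 with a floor of 20 CPM, 130 with group medians, and 130 to 145 without each library of the rule in turn. Chosen after the data were seen, a floor on the mean plus 1 kept 144 and totals without the most abundant gene kept 141. TMM scaling moved the mean of the injured week 4 library medians from 47.7 to 58.8 CPM, and leaving out each library gave 45.6 to 49.5 CPM. The 41 genes not above all other libraries of the rule were 22 with TMM scaling and 23 to 39 without each injured week 4 library. The cause of these shifts was not tested. No paired analysis was possible because the replicate numbers only follow the order of deposition. The alternatives planned for listed genes at weeks 3 and 4 were not run, as no identifier matched a symbol. Week 2 depth limits every week 2 value.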
